A study of Rattus norvegicus with 16 samples.

Results

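Immediate early genes were followed in rat kidneys through 9 genes fixed by name: Fos, Fosb, Jun, Junb, Egr1, Atf3, Myc, Btg2 and Ier3. The array annotation named 7 of them, on 18 of its 8740 probe sets, each a group of short oligonucleotides read as 1 value. Fosb and Btg2 were not named in it and were not analysed here. Of the 18 probe sets, 13 for 5 genes were bright enough to be tested, namely 3 each for Fos, Jun and Egr1 and 2 each for Junb and Ier3. The only probe set of Atf3, both of Myc, and 1 each of Jun and Egr1 were among the 40% of probe sets with the lowest mean signal, and are given as values only.

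RNA from both kidneys of 8 rats was hybridised to 16 arrays. The right kidney had been given ACTH (adrenocorticotropic hormone, the pituitary hormone that drives the adrenal cortex) in rats 1 and 5, DEX in rats 3 and 7, and saline in rats 2, 4, 6 and 8, and the left kidney of the same animal was the control. The labels do not expand DEX, and they give no dose, route, duration, time of sampling, strain, sex or age. The array titles give 4 saline rats and the series description gives 2 per treatment, and the titles were followed.

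Immediate early genes are switched on by stimuli without new protein synthesis, because the factors that bind their promoters, such as SRF with its ETS partners and CREB, are already present and are activated by phosphorylation. Their transcripts are short-lived, so a level reports recent signalling. Fos and Jun family proteins pair through leucine zippers as the transcription factor AP-1, Egr1 is a zinc finger factor, Atf3 is a stress-induced leucine zipper factor of the ATF/CREB family, Myc drives growth genes, and Ier3 encodes a small protein linked to cell survival. In the kidney they are known for rapid induction by growth factors and after ischaemia.

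RefSeq promoter windows (rat build GRCr8, 250 bases before to 50 bases after the annotated gene start) were matched for 2 of the 7 genes on the array, Egr1 and Junb. They are shown because Egr1 had the widest spread of changes between kidneys of the members, and because the changes of Egr1 and Junb can be set beside the factors that read such sites. Capitals mark matches to the CArG box, which SRF binds, and to the CRE half-site TGACG on either strand, which CREB and ATF factors bind.

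Egr1, chr18:26736828-26737127, plus strand: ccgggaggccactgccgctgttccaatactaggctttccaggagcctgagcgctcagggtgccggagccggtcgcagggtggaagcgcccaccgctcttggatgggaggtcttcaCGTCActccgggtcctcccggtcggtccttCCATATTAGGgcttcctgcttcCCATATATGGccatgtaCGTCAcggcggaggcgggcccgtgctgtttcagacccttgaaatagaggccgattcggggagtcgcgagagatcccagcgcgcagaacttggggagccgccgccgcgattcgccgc

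Junb, chr19:40080876-40081175, plus strand: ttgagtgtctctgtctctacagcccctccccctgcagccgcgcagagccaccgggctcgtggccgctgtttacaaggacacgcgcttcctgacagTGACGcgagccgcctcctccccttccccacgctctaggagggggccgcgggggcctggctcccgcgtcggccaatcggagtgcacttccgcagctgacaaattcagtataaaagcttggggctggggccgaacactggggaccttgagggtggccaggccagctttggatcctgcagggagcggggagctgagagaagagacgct

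The Egr1 window held 2 CArG boxes, CCATATTAGG starting 105 bases before the gene start and CCATATATGG starting 83 bases before it, and 2 CRE half-sites starting 135 and 66 bases before it. The Junb window held 1 CRE half-site, 155 bases before the start, and no CArG box. A CArG box was present in 1.64% of the 33469 rat promoter windows and a CRE half-site in 21.2%. Neither window held the full CRE (TGACGTCA, in 1.83% of windows, which contains the half-site), the AP-1 site TGANTCA (in 7.33%) or the EGR site GCGNGGGCG (in 4.98%), searched on both strands. These matches describe letters only, and no binding was measured.

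The arrays fell into sets that the labels do not name. The leading principal component, 45.7% of the variance, placed all kidneys of rats 5 to 8 (0.174 to 0.321) apart from all kidneys of rats 1 to 4 (-0.281 to -0.207), and each set held 1 rat of either hormone and 2 saline rats. Array medians were alike (the highest was 82.4 signal units), and the left kidney of a rat was set against its right kidney throughout. Kidney markers were bright, with 8 of 9 proximal tubule markers and 4 of 5 thick ascending limb markers named and past the brightness filter. In whole kidneys, fewer cells of a type and less RNA per cell cannot be told apart.

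Egr1 differed most between the kidneys of a rat, and the hormone rats 5 and 7 and the saline rats 6 and 8 differed in opposite directions. On its brightest probe set, AF023087_s_at, the right kidney given ACTH had 497 signal units in rat 1 and 1050 in rat 5, against 706 and 406 in their left kidneys. The right kidney given DEX had 225 in rat 3 and 955 in rat 7, against 242 and 343 in their left kidneys. The right kidney given saline had 254, 268, 621 and 380 in rats 2, 4, 6 and 8, against 331, 181, 1845 and 915 in their left kidneys. The highest value of all was thus in the untreated left kidney of a saline rat, and the ranges of all 4 groups overlapped. On average the signal was 773 ± 391 in ACTH right kidneys (SD, n = 2), 590 ± 516 in DEX right kidneys (n = 2), 381 ± 170 in saline right kidneys (n = 4) and 621 ± 553 in left kidneys (n = 8).

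As a right minus left change of log2(signal + 16), Egr1 was 1.34 in ACTH rat 5 and 1.44 in DEX rat 7, against -1.55 and -1.23 in saline rats 6 and 8. In the other set it was -0.49 in ACTH rat 1 and -0.10 in DEX rat 3, against -0.36 and 0.53 in saline rats 2 and 4. Both hormone rats of the set 5 to 8 therefore lay above both saline rats of that set, whereas in the set 1 to 4 they lay between them or below them. This split was read from the values, and the share of all tested probe sets that show it was not counted. A dimmer Egr1 probe set, M18416_at, gave the same order of sizes, 1.01 and 1.14 in rats 5 and 7 against -1.27 and -0.95 in rats 6 and 8, and over the 8 rats its change correlated with that of the brightest at r = 0.99 (exact permutation test, adjusted p = 0.000546 over 11 pairs of probe sets of the same gene). The probe set U75398_s_at moved less, -0.06 and 0.28 in rats 5 and 7 against -0.42 and -0.21 in rats 6 and 8.

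**Figure D1:**
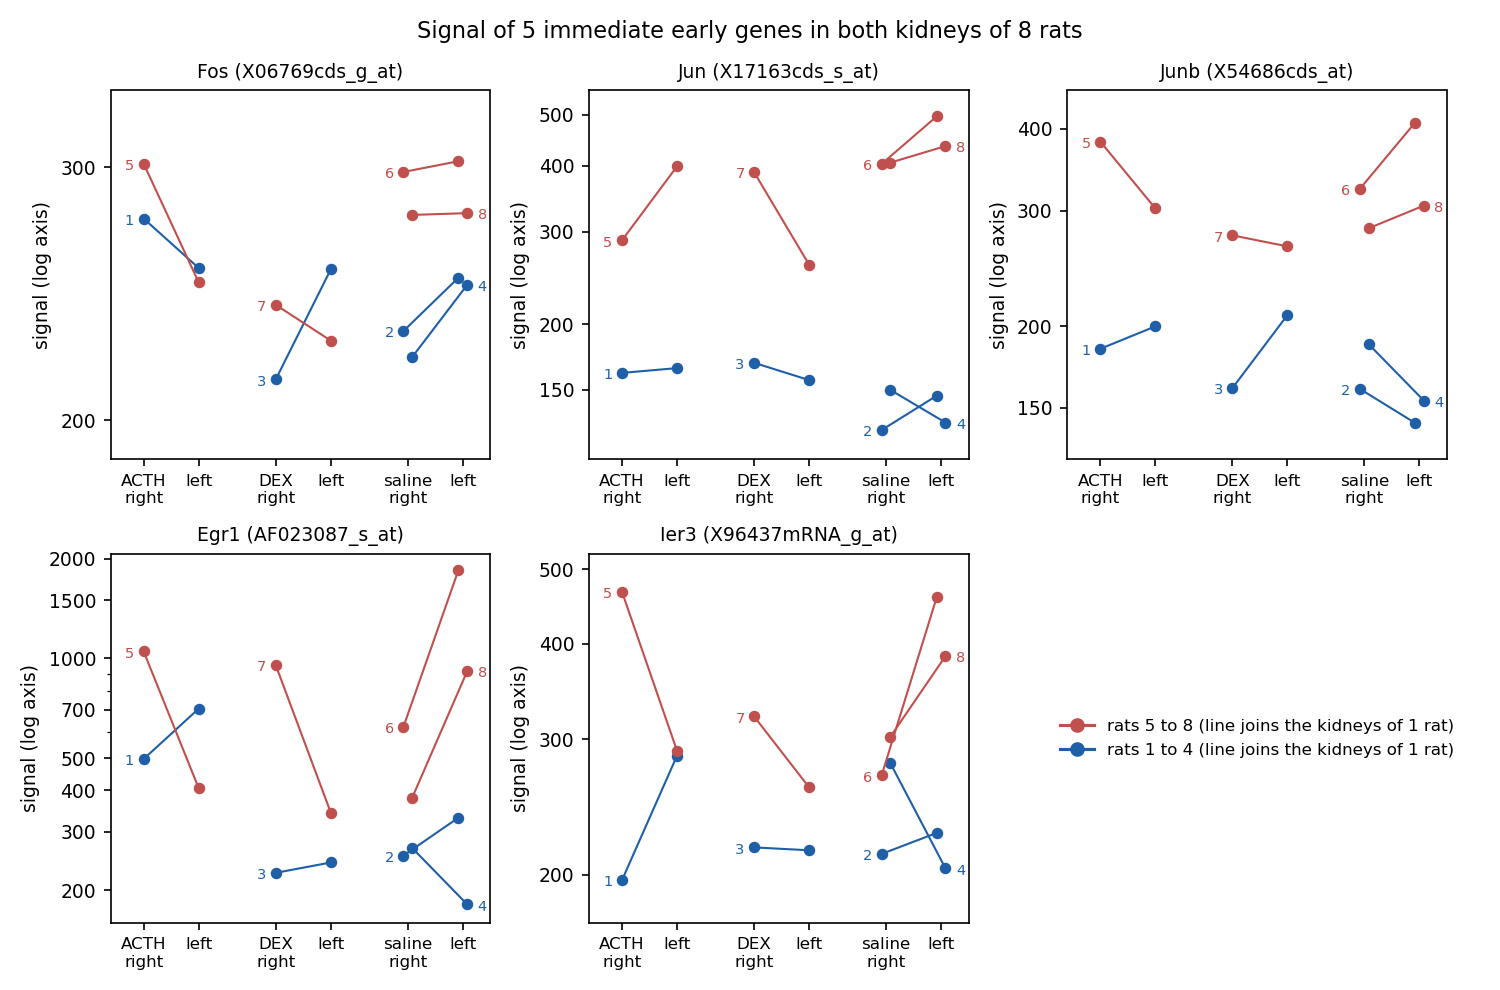
Signal (log axis) of the brightest tested probe set of Fos, Jun, Junb, Egr1 and Ier3 in the right and left kidneys of each rat, with ACTH, DEX and saline rats from left to right. Each line joins the kidneys of 1 rat, whose number stands beside it, with rats 5 to 8 in red and rats 1 to 4 in blue; the Egr1 lines of rats 5 and 7 run opposite to those of rats 6 and 8, and the Jun points of rats 5 to 8 all lie above those of rats 1 to 4.

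Fos, the AP-1 subunit that pairs with Jun proteins, had changes between -0.32 and 0.33 on its 3 probe sets in all 8 rats. Its brightest probe set, X06769cds_g_at, had 276 and 302 in the right kidneys of ACTH rats 1 and 5, against 255 and 249 in their left kidneys. In DEX rats 3 and 7 it had 213 and 241 on the right, against 255 and 227 on the left. In saline rats 2, 4, 6 and 8 it had 231, 221, 298 and 278 on the right, against 251, 248, 303 and 279 on the left. The changes of 0.11 and 0.26 in the ACTH rats lay above all 4 saline changes, which ran between -0.16 and -0.00, and the DEX changes of -0.24 and 0.08 lay on either side of them. The other 2 Fos probe sets put both ACTH rats above all saline rats as well. These 3 were the members whose ACTH changes did so, 3 of 13, where 7.82% of all tested probe sets did. All 3 are of 1 gene and so not independent. The lower ACTH change was 0.038 against a highest saline change of 0.003 on X03347cds_g_at, and 0.080 against 0.056 on X06769cds_at. The ACTH effect on Fos was small against its error, 0.26 ± 0.16 (log2 ± SE, limma adjusted p = 0.678).

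Jun, the partner of Fos and a substrate of JNK kinases, had changes of opposite sign in the ACTH and DEX rats, and the difference did not pass its test. On its brightest probe set, X17163cds_s_at, the right kidney had 162 and 289 in ACTH rats 1 and 5, against 165 and 399 on the left. It had 169 and 389 in DEX rats 3 and 7, against 157 and 260 on the left. In saline rats 2, 4, 6 and 8 it had 126, 150, 403 and 406, against 146, 130, 496 and 436 on the left. The change was below 0 in both ACTH rats (-0.03 and -0.45) and above 0 in both DEX rats (0.10 and 0.56), with saline rats between -0.29 and 0.18. The probe set rc_AI175959_at gave -0.15 and -0.29 in the ACTH rats, 0.45 and 0.54 in the DEX rats and -0.24 to 0.46 in the saline rats. The probe set rc_AA945867_at gave -0.40 and -0.50 in the ACTH rats, 0.26 and 0.21 in the DEX rats and -0.37 to 0.36 in the saline rats. Of the 13 tested member probe sets 3, all of Jun and so not independent, lay below 0 in both ACTH rats and above 0 in both DEX rats. So did 8.41% of all tested probe sets, and 0 of 13 showed the reverse, where 5.66% did. The difference between the hormone effects was -0.56 ± 0.23, -0.71 ± 0.23 and -0.69 ± 0.23, and none of these passed (limma adjusted p = 0.357, 0.252 and 0.252).

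Summed signals of thick ascending limb and proximal tubule markers also ran in opposite directions in the ACTH and DEX rats. That of collecting duct and medulla markers did not. Its right over left ratio was 0.84 and 1.73 in ACTH rats 1 and 5, and 0.94 and 1.10 in DEX rats 3 and 7. The summed signal of the 4 tested thick ascending limb markers (of 5), taken as right over left, lay below 1 in ACTH rat 1 (0.71) and ACTH rat 5 (0.87). It lay above 1 in DEX rat 3 (1.22) and DEX rat 7 (1.14), and the saline rats lay between 0.90 and 1.06. The sum itself ranged from 3820 to 3857 in ACTH right kidneys, 4119 to 5519 in DEX right kidneys, 3681 to 5821 in saline right kidneys and 3628 to 5826 in left kidneys. All 4 had a negative ACTH minus DEX difference, with a median of -0.56. Of these 0 passed and 3 were under 0.05 before adjustment, where 0.572% of all tested probe sets were called and 12.2% were under 0.05. For right over left in ACTH rats 1 of the 4 passed, and was lower, where 3.57% of all tested probe sets were called. The summed signal of the 8 tested proximal tubule markers (of 9) had ratios of 0.87 and 0.92 in the ACTH rats. The ratios were 1.11 and 1.10 in the DEX rats and 1.00 to 1.14 in the saline rats. Taken gene by gene, 5 of these 8 markers had a positive right over left estimate in ACTH rats, with a median of 0.09. In DEX rats 7 of the 8 were positive, with a median of 0.14, so most did not run in opposite directions. The sum of the 8 ranged from 16507 to 16935 in ACTH right kidneys and 20172 to 21084 in DEX right kidneys. It ranged from 18639 to 22214 in saline right kidneys and 18305 to 21032 in left kidneys. Of the 8, 1 passed, and was lower, in each of ACTH over saline, ACTH minus DEX and right over left in ACTH rats. Over all tested probe sets 0.496%, 0.572% and 3.57% were called in these comparisons. The part of these segments in the Jun result was not tested.

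The dim Jun probe set rc_AA944014_at did not show the opposed signs, with changes of 0.14 and -0.49 for ACTH rats 1 and 5. The changes were 0.0091 and -0.015 for DEX rats 3 and 7, and -0.30, -0.22, 0.40 and -0.28 in saline rats 2, 4, 6 and 8. Its signal lay between 33.4 and 60.4 over the 16 arrays. Within rats 1 to 4 alone the differences for X17163cds_s_at, rc_AI175959_at and rc_AA945867_at were -0.13, -0.60 and -0.66. Within rats 5 to 8 alone they were -1.0, -0.83 and -0.71 in that order. Each set holds 1 ACTH and 1 DEX rat, so the shared sign follows from the opposed signs above and adds no support. Of the saline rats, rat 4 was above 0 on all 3 probe sets, at 0.18, 0.46 and 0.36. Both ACTH changes of rc_AA945867_at lay below all saline changes, the only member probe set of the 13 to do so, where 7.84% of all tested probe sets did. No member had both DEX changes above all saline changes, where 6.08% did, or below all of them, where 6.33% did.

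Junb, an AP-1 subunit that can hold back Jun activity, had overlapping values in all groups. On X54686cds_at the right kidney had 185 and 383 in ACTH rats 1 and 5, against 200 and 303 on the left. It had 161 and 275 in DEX rats 3 and 7, against 208 and 265 on the left. In saline rats 2, 4, 6 and 8 it had 160, 188, 324 and 282, against 142, 154, 409 and 305 on the left. The changes were -0.10 and 0.32 in the ACTH rats and -0.34 and 0.05 in the DEX rats. They were 0.16, 0.26, -0.32 and -0.11 in saline rats 2, 4, 6 and 8. The other Junb probe set, rc_AA891041_at, had -0.18 and 0.58 in the ACTH rats and -0.28 and 0.21 in the DEX rats. It had -0.18, 0.06, -0.36 and -0.34 in saline rats 2, 4, 6 and 8. On both probe sets rats 5 and 7 thus lay above 0 and rats 6 and 8 below 0, the directions of Egr1 on its brightest probe set. How many of all tested probe sets have these directions was not counted.

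Ier3 showed the same pair of opposed directions as Egr1 at a smaller size. On X96437mRNA_g_at the right kidney had 197 and 467 in ACTH rats 1 and 5, against 286 and 290 on the left. It had 217 and 322 in DEX rats 3 and 7, against 215 and 260 on the left. In saline rats 2, 4, 6 and 8 it had 213, 279, 269 and 303, against 227, 204, 460 and 385 on the left. The change was 0.66 in ACTH rat 5 and 0.29 in DEX rat 7, against -0.74 and -0.33 in saline rats 6 and 8. In the other set it was -0.50 in ACTH rat 1 and 0.01 in DEX rat 3, against -0.08 and 0.43 in saline rats 2 and 4. The other probe set, X96437mRNA_at, had -0.24 and 0.46 in ACTH rats 1 and 5 and -0.23 and 0.14 in DEX rats 3 and 7. It had -0.16, 0.07, -0.33 and -0.12 in saline rats 2, 4, 6 and 8. The mean DEX change of Ier3 differed between them, 0.15 on X96437mRNA_g_at and -0.04 on X96437mRNA_at.

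Atf3, on the dim probe set M63282_at, had 48.2 and 70.2 in the right kidneys of ACTH rats 1 and 5, against 57.4 and 56.8 on the left. In DEX rats 3 and 7 it had 49.1 and 59.8 on the right, against 55.5 and 60.4 on the left, and in saline rats 2, 4, 6 and 8 it had 47.7, 49.9, 48.5 and 48.6 on the right, against 50.3, 49.2, 84.9 and 58.6 on the left. Its highest value, like that of Egr1, was in the left kidney of saline rat 6. The Myc probe set Y00396mRNA_at lay between 31.6 and 61.5 over the 16 arrays, and Y00396mRNA_g_at between 26.7 and 49.4, where 60.5 was the lowest mean signal among the tested probe sets. The dim Egr1 probe set rc_AI176662_s_at lay at the edge of the filter, with a mean of 54.5 ± 7.45 in ACTH right kidneys (SD, n = 2), 70.4 ± 27.5 in DEX right kidneys (n = 2), 52.8 ± 3.67 in saline right kidneys (n = 4) and 65.1 ± 22.1 in left kidneys (n = 8). Its change in ACTH rats 1 and 5 was -0.032 and 0.073, that in DEX rats 3 and 7 was -0.18 and 0.65, and it was -0.13, -0.016, -0.83 and -0.48 in saline rats 2, 4, 6 and 8. The Myc probe set Y00396mRNA_at had right minus left values of 0.14 and -0.089 for ACTH rats 1 and 5. It had -0.034 and 0.56 for DEX rats 3 and 7, and -0.41, 0.55, -0.096 and 0.18 in saline rats 2, 4, 6 and 8, and Y00396mRNA_g_at lay between -0.32 and 0.46 in all rats.

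The count of member probe sets higher on the right differed between animals. Right exceeded left on 3 of 13 member probe sets in ACTH rat 1 and 9 of 13 in ACTH rat 5, on 4 and 13 of 13 in DEX rats 3 and 7, and on 1, 10, 1 and 1 of 13 in saline rats 2, 4, 6 and 8. Over all 5244 tested probe sets that share was 46.6% to 57.8% in the 8 rats. The median member change was highest in ACTH rat 5, at 0.32, and lowest in saline rat 6, at -0.33, while the median over all tested probe sets stayed within -0.02 and 0.04 in every rat. Probe sets of 1 gene share transcripts, so these counts are not independent. DEX rat 7 was thus the only rat with all 13 member probe sets higher on the right, and saline rats 2, 6 and 8 had all but 1 of them lower.

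**Figure D2:**
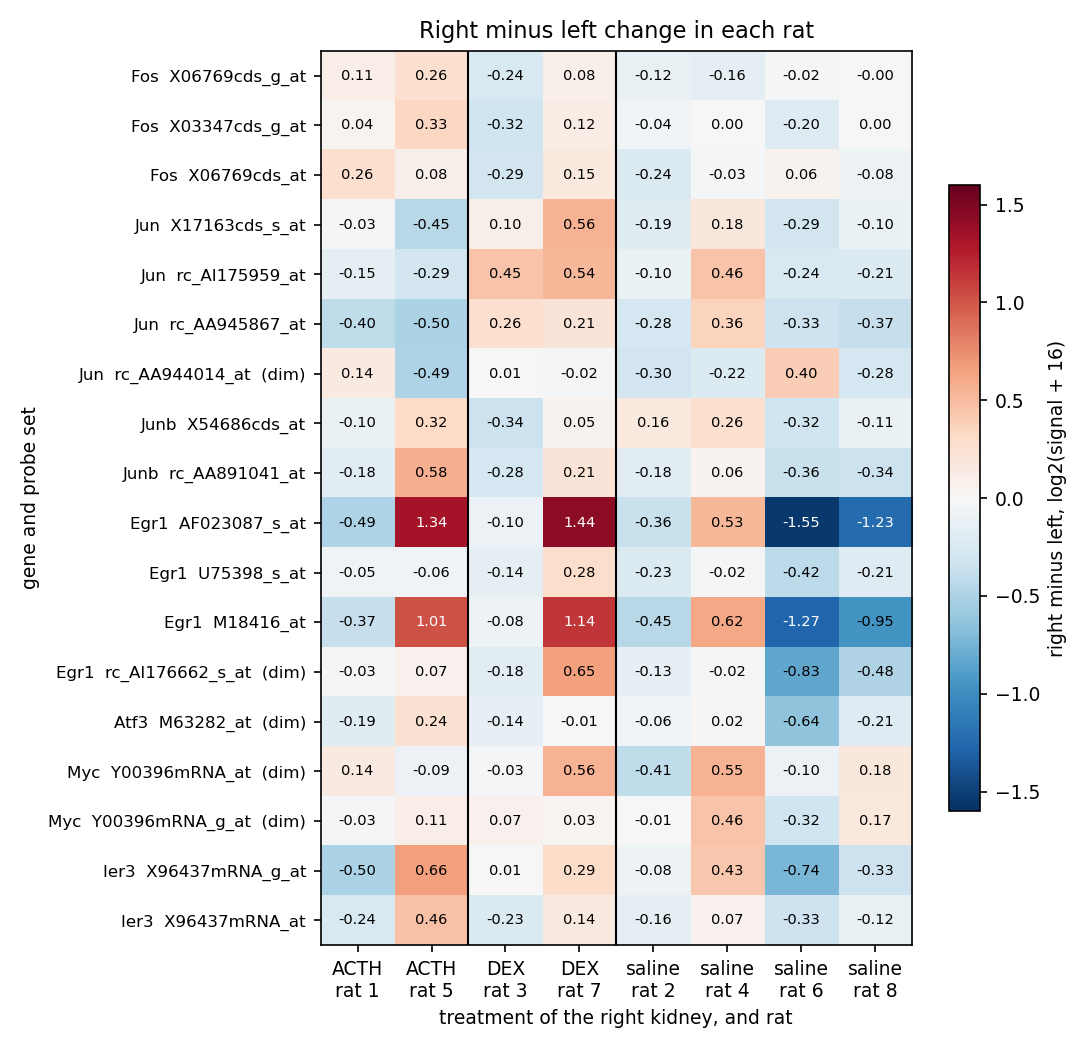
Heat map of the right minus left change in log2(signal + 16) of each immediate early probe set (rows, with the 5 under the brightness filter marked as dim) in each rat (columns, ACTH, DEX and saline from left to right). The Egr1 rows reach 1.34 in rat 5 and 1.44 in rat 7, against -1.55 in rat 6 and -1.23 in rat 8, and the Jun rows are negative in both ACTH rats and positive in both DEX rats on the 3 tested probe sets.

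Markers of other tissues and segments also differed between kidneys in the rats concerned. In rat 5 the summed signal of the 5 collecting duct and medulla markers was 1.73 times as high on the right as on the left. That of the 7 smooth muscle and mesangium markers, 6 of them tested, was 1.58 times as high. That of the 2 tested erythrocyte markers (of 5) was 1.61 times as high. Rats 6, 7 and 8 had 1.07, 1.10 and 1.17 for collecting duct and 1.01, 0.95 and 0.99 for smooth muscle. They had 0.72, 0.63 and 1.23 for erythrocytes. The summed collecting duct markers ranged from 2399 to 4369 in ACTH right kidneys, 2272 to 2531 in DEX right kidneys, 2574 to 2955 in saline right kidneys and 2300 to 2864 in left kidneys. The summed smooth muscle markers ranged from 1461 to 1762 in ACTH right kidneys and 1194 to 1408 in DEX right kidneys. They ranged from 1053 to 1251 in saline right kidneys and 1096 to 1480 in left kidneys. Of the 6 tested, 1 passed, and was higher, for right over left in ACTH rats, where 3.57% of all tested probe sets were called. The 7 adipose markers on the array (of 8), 6 of them tested, were summed. The sum differed 3.48-fold in rat 1, 0.33-fold in rat 6 and 0.44-fold in rat 7, right over left. Their sum ranged from 1632 to 11153 in ACTH right kidneys and 934 to 1304 in DEX right kidneys. It ranged from 912 to 1590 in saline right kidneys and 902 to 3650 in left kidneys. Of the 6 tested adipose markers 3 passed, and were higher, for ACTH minus DEX, where 0.572% of all tested probe sets were called. The 7 leukocyte markers on the array (of 9), 5 of them tested, were summed as well. That sum differed 0.87-fold in rats 5 and 7 and 1.03-fold and 1.00-fold in rats 6 and 8. No marker was at 0 on any array, and the part of these differences in the member changes was not tested.

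Each hormone effect is the mean change in the hormone rats minus that in the saline rats, and no member passed an adjusted p of 0.05 for either hormone. For ACTH, limma passed 0 of 13 member probe sets, and 0 were under 0.05 before adjustment, where it called 0.496% of the 5244 tested probe sets (26) and 9.44% had an unadjusted p under 0.05. For DEX, 0 of 13 passed and 2 had an unadjusted p under 0.05, Jun rc_AI175959_at and Egr1 AF023087_s_at, where 0% were called and 2.94% had an unadjusted p under 0.05. Both effects use the same 4 saline rats. The median effect over the 13 was 0.25 for ACTH and 0.29 for DEX, against -0.00 over all tested probe sets in both. In each, 10 of 13 were positive, where 49.9% of all tested probe sets were positive for ACTH and 49.5% for DEX.

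Egr1 had the largest estimate and the widest error in both. ACTH over saline was 1.08 ± 0.59 (2.11-fold on the scale of signal + 16, 95% interval -0.22 to 2.37, limma adjusted p = 0.610), and DEX over saline was 1.32 ± 0.59 (2.50-fold, interval 0.03 to 2.62, unadjusted p = 0.0454, adjusted p = 0.999). The SD of the Egr1 change was 1.29 in ACTH rats (n = 2), 1.08 in DEX rats (n = 2) and 0.93 in saline rats (n = 4). limma draws the error toward that of probe sets of like brightness, so both intervals are narrower than these rats alone would give. Both effects are averages over animals that differed. Within rats 5 to 8 alone the effects were 2.73 ± 0.25 for ACTH and 2.83 ± 0.25 for DEX (adjusted p = 0.206 and 0.124), and within rats 1 to 4 alone -0.57 ± 0.23 and -0.18 ± 0.23 (adjusted p = 0.152 and 0.998). Each of those fits holds 1 rat of each hormone, which is assumed to vary like the 2 saline rats. Without rat 5 the ACTH effect on Egr1 was 0.16 and without rat 1 it was 1.99, and without rat 7 the DEX effect was 0.56 and without rat 3 it was 2.09.

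No other member passed the threshold. For ACTH they were 0.26 ± 0.33 for Ier3, 0.11 ± 0.21 for Junb and -0.14 ± 0.20 for Jun, with adjusted p values of 0.907, 0.946 and 0.915. For DEX they were 0.43 ± 0.20 for Jun, 0.33 ± 0.33 for Ier3, -0.01 ± 0.16 for Fos and -0.14 ± 0.21 for Junb, each with an adjusted p of 0.999. The Ier3 ACTH effect turned sign between the sets, 1.19 ± 0.27 within rats 5 to 8 alone (adjusted p = 0.703) and -0.68 ± 0.22 within rats 1 to 4 alone, where it was under the threshold (adjusted p = 0.0446) in a fit of 1 ACTH rat against 2 saline rats that called 296 of all 5244 tested probe sets. Junb also turned sign, at 0.54 in rats 5 to 8 and -0.31 in rats 1 to 4. Fos had 0.27 in rats 5 to 8 and 0.24 in rats 1 to 4, and Jun had -0.25 and -0.02 in those sets. For DEX, rats 5 to 8 and rats 1 to 4 gave 0.83 and -0.16 for Ier3, 0.75 and 0.10 for Jun, 0.27 and -0.55 for Junb, and 0.091 and -0.10 for Fos. The 95% intervals leave room for sizeable effects of ACTH, up to 0.60 for Fos and 0.97 for Ier3, and a p that missed the threshold does not show that the hormones left a gene as it was.

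For the difference between the hormones, ACTH minus DEX, 0 of 13 passed and 3 had an unadjusted p under 0.05, the 3 Jun probe sets, where limma called 0.572% (30) of all tested probe sets and 12.2% had an unadjusted p under 0.05. The median was -0.07, against 0.02 over all tested probe sets. The difference was -0.25 ± 0.69 for Egr1, 0.26 ± 0.18 for Fos, 0.25 ± 0.24 for Junb and -0.07 ± 0.38 for Ier3.

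**Figure D3:**
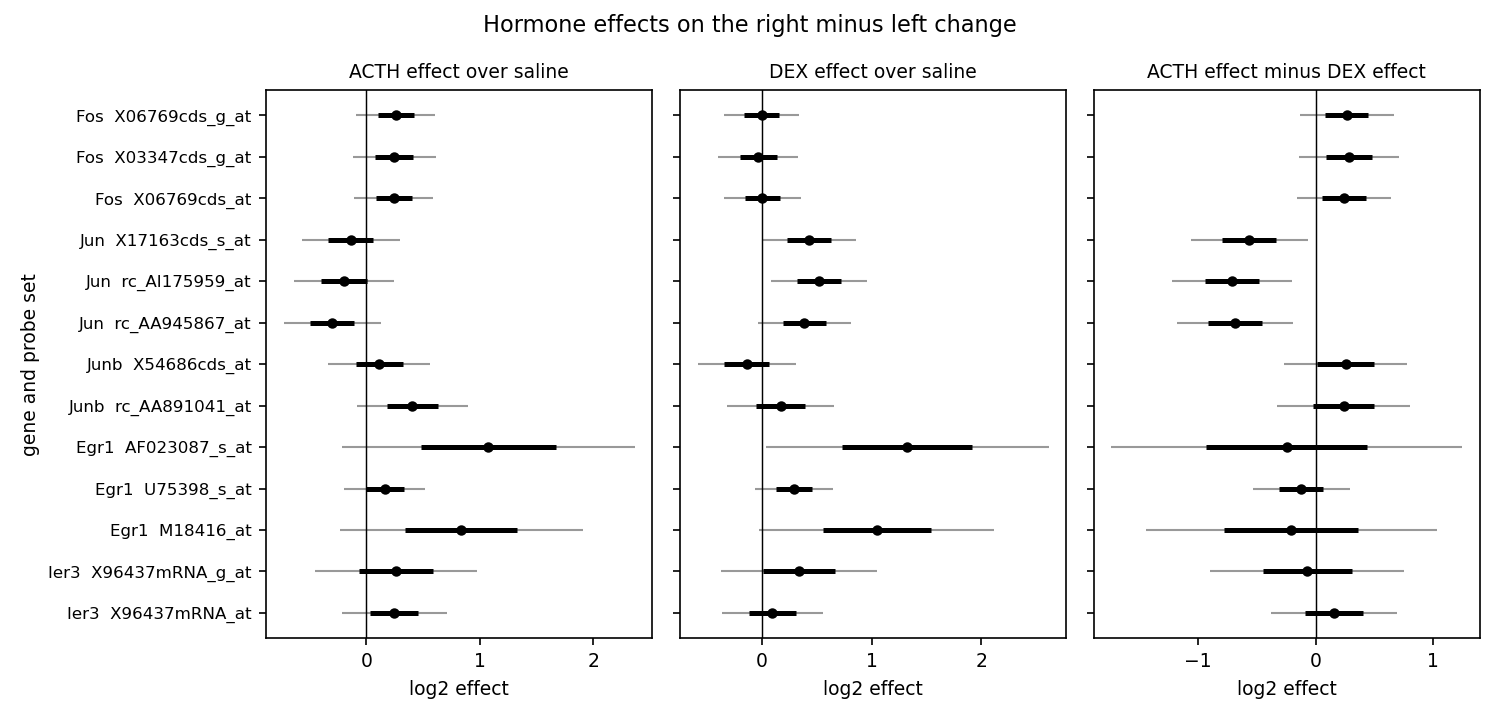
Effects on the right minus left change for the 13 tested immediate early probe sets in 3 panels (ACTH over saline, DEX over saline, and ACTH minus DEX), in log2 units. Points are limma estimates, thick bars the SE and thin bars the 95% interval; Egr1 has the widest intervals, and the 3 Jun probe sets are the ones whose interval for ACTH minus DEX lies below 0, with adjusted p values of 0.252 to 0.357.

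Right against left within a treatment gave no member past the threshold either. In ACTH rats 0 of 13 passed, with 1 at an unadjusted p under 0.05, where 3.57% of all tested probe sets were called and 18.4% were under 0.05 before adjustment. In DEX rats 0 of 13 passed, with 1 under 0.05 before adjustment, where 0% were called and 5.91% were under 0.05. In saline rats 0 of 13 passed, with 1 under 0.05 before adjustment, where 0% were called and 3.74% were under 0.05. All 13 estimates were negative, with a median of -0.14, where 55.8% of all tested probe sets were positive, with a median of 0.01. The largest was Egr1 AF023087_s_at, at -0.65 ± 0.34, and the other genes' brightest probe sets lay between -0.18 (Ier3) and -0.00 (Junb). Over all 8 rats 0 of 13 passed and 0 had an unadjusted p under 0.05, where 1.54% were called and 14.1% were under 0.05. Of the 13 estimates 12 were negative, with a median of -0.03, where 54.7% of all tested probe sets were positive.

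The untreated left kidneys were compared between the treatment groups because the labels do not say whether the hormones reached them. For left kidneys of ACTH rats over those of saline rats, limma passed 0 of 13, with 0 under 0.05 before adjustment, and the same counts held for DEX rats, where it called 0% of all tested probe sets in both. Egr1 was -0.09 ± 0.59 for ACTH and -0.95 ± 0.59 for DEX (adjusted p = 1.00 and 0.999). Over all tested probe sets 1.96% were under 0.05 before adjustment for ACTH and 3.13% for DEX. In the ACTH rats 10 of 13 estimates were negative with a median of -0.09, where 53.3% of all tested probe sets were positive with a median of 0.0090. In the DEX rats 12 of 13 were negative with a median of -0.17, where 49.5% of all were positive with a median of -0.0015. The left values of Egr1 ranged from 181 to 1845, with a median of 374, while right values of saline rats ranged from 254 to 621.

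Changes of the 5 genes were compared with each other over the 8 rats, 10 pairs in all, with 1 probe set per gene. Egr1 and Ier3 changed together (Pearson r = 0.91, exact permutation p = 0.00310, adjusted p = 0.0310; Spearman rho = 0.90, p = 0.00456, adjusted p = 0.0456), in the same direction in 7 of 8 rats. Without rats 5 and 7, the farthest from the median on Egr1, r was 0.90, and after the mean of each treatment was removed it was 0.93. This holds for the brightest probe sets, and pairs of their other probe sets were not correlated. Egr1 M18416_at followed AF023087_s_at at r = 0.99 and U75398_s_at did so at r = 0.83, with a change of -0.06 in rat 5. Junb and Ier3 had r = 0.77 and Junb and Egr1 had r = 0.68, which did not pass (exact permutation, adjusted p = 0.154 and 0.237). Jun and Egr1 had r = 0.39 (exact permutation, adjusted p = 0.673), with ACTH rat 5 high for Egr1 and low for Jun, and r = 0.84 without rats 5 and 7. The pairs of Fos with the other genes had r between -0.29 and 0.38, with adjusted p of 0.673 and above by the exact permutation test. Each set of 4 rats is too small for a correlation of its own.

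**Figure D4:**
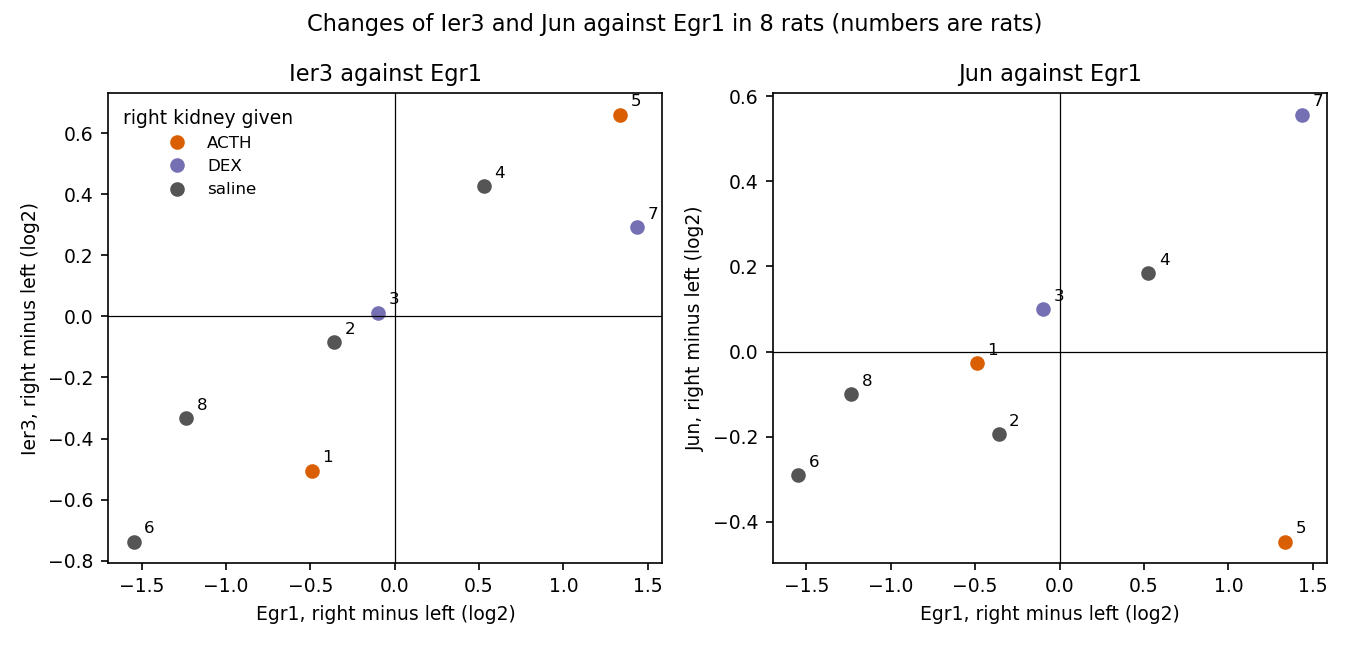
Right minus left change (log2) of Ier3 (left panel) and Jun (right panel) against that of Egr1 in 8 rats, numbered and coloured by what the right kidney was given. Ier3 rises with Egr1 (r = 0.91), and in the Jun panel rats 5 and 7 lie far apart vertically, at -0.45 and 0.56, at similar Egr1 changes of 1.34 and 1.44.

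Genes outside the list were ranked by how closely their right minus left change followed a member over the 8 rats, as a description. Nr4a1, an orphan nuclear receptor and itself an immediate early gene, was closest to the mean of the 5 genes (r = 0.89 on U17254_g_at). It had 181 and 221 in the right kidneys of ACTH rats 1 and 5, against 196 and 167 on the left. It had 145 and 295 in DEX rats 3 and 7, against 229 and 142 on the left. In saline rats 2, 4, 6 and 8 it had 161, 226, 163 and 213, against 193, 155, 269 and 256 on the left. The direction in rats 5 to 8 was that of Egr1, with 0.37 and 0.97 in rats 5 and 7 against -0.67 and -0.25 in rats 6 and 8. Next after Nr4a1 came Cd82 (r = 0.88), Mgat1 (r = 0.87), Pom121 (r = 0.87) and Cpsf4 (r = 0.86). Mgat1 stands here by D16302_at, and its other tested probe sets had the opposite sign in rats 1, 7 and 8. Closest to Ier3 were Pim3, a serine/threonine kinase (r = 0.96), Cd82, a tetraspanin (r = 0.96), and Mgat1, a glycosyltransferase (r = 0.95). Closest to Egr1 were Slc15a4, a peptide and histidine transporter (r = 0.87), Cd82 (r = 0.87) and Mgat1 (r = 0.86), so 2 of the 3 genes were shared with Ier3. Closest to Jun were Itpr1, a calcium release channel (r = 0.95), Oas1a (r = 0.95) and Acsm3 (r = 0.91). Fos was closest to Kctd13 (r = 0.99), Acvr2b (r = 0.95) and Syngr1 (r = 0.95), and Junb to Med25 (r = 0.91), Arsb (r = 0.90) and Klf13 (r = 0.89). Each r is the top of a ranking over all tested genes with only 8 rats behind it, and carries no test.

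Levels, as distinct from changes, differed between the sets of rats. On 5 of 13 member probe sets, 1 per gene, every kidney of rats 5 to 8 lay above every kidney of rats 1 to 4, where 9.94% of all tested probe sets did so, and 0 of 13 lay wholly below, where 8.35% did. Jun X17163cds_s_at averaged 385 ± 76.5 in rats 5 to 8 and 151 ± 15.8 in rats 1 to 4 (SD, 8 kidneys each). Junb X54686cds_at averaged 318 ± 51.8 in rats 5 to 8 and 175 ± 23.5 in rats 1 to 4, and Ier3 X96437mRNA_at 337 ± 42.2 in rats 5 to 8 and 227 ± 19.6 in rats 1 to 4. Fos X03347cds_g_at averaged 215 ± 28.8 in rats 5 to 8 and 139 ± 12.0 in rats 1 to 4, and Egr1 U75398_s_at 151 ± 24.0 in rats 5 to 8 and 99.4 ± 7.38 in rats 1 to 4. Not every probe set of a gene did so, since Jun rc_AI175959_at averaged 253 ± 46.6 in rats 5 to 8 and 264 ± 41.4 in rats 1 to 4. The sets were read from the arrays and are not named in the labels, so these values are given with no test.

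Related genes were listed by role, each gene by its brightest tested probe set, and none of the lists had a member past the threshold in limma for ACTH or for DEX over saline. At an unadjusted p under 0.05, the 23 other immediate early genes tested had 2 lower for ACTH, and 3 higher and 1 lower for DEX. The 16 targets had 2 higher for ACTH, the 13 signalling genes 1 lower for ACTH and the 4 MYC partners 1 higher for DEX. Over all tested probe sets 9.44% were under 0.05 before adjustment for ACTH and 2.94% for DEX. In the other AP-1 and CREB/ATF family, 9 of 16 genes were tested, with medians of 0.04 for ACTH and -0.02 for DEX. The members with the smallest p were Cebpb, a leucine zipper factor of acute responses (0.62 ± 0.39 for ACTH, 0.33 ± 0.39 for DEX), Cebpd (0.19 ± 0.14 for ACTH) and Batf3 (-0.15 ± 0.18 for DEX). In ERK, JNK and SRF signalling, 13 of 25 were tested, with medians of -0.14 and -0.00. The members with the smallest p there were Map3k1, a kinase upstream of JNK (-0.47 ± 0.18 for ACTH), and Mapk9, a JNK (-0.28 ± 0.15 for ACTH), and, for DEX, Dusp1, the phosphatase that switches MAP kinases off (0.41 ± 0.24), and Mapk8, another JNK (-0.30 ± 0.15). All were well short of the threshold, with adjusted p from 0.427 to 0.999.

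Of other immediate early genes, 23 of 39 were tested, with medians of -0.04 for ACTH and 0.08 for DEX. The clock gene Per2, also an immediate early gene, was -0.73 ± 0.15 for ACTH (limma adjusted p = 0.0613) and 0.43 ± 0.15 for DEX (limma adjusted p = 0.999). Its ACTH minus DEX difference of -1.16 ± 0.18 passed (limma adjusted p = 0.0167), as did its right minus left change in ACTH rats, -0.84 ± 0.12 (limma adjusted p = 0.00320). In each of these, 1 of the 23 was called, where 0.572% and 3.57% of all tested probe sets were called. Klf9, a Kruppel-like factor, was -0.58 ± 0.26 for ACTH (adjusted p = 0.505), and the kinase Sgk1 was 0.87 ± 0.28 for DEX (adjusted p = 0.999), with a change of 1.42 in rat 3 and 0.12 in rat 7. Ptgs2, the inducible cyclooxygenase, fell on the right over all 8 rats by 0.35 ± 0.07 (limma adjusted p = 0.0282). It was 1 of the 23 called there, where 1.54% of all tested probe sets were called. Of the MYC partners and the BTG/TOB family, 4 of 11 were tested, with medians of -0.14 and 0.07. Mxi1, a MAX partner that opposes MYC, was -0.27 ± 0.18 for ACTH and 0.39 ± 0.18 for DEX, Max, the partner MYC needs to bind DNA, was -0.20 ± 0.23 for ACTH, and Mxd3 was 0.08 ± 0.15 for DEX. Of 23 known AP-1, EGR1 and MYC targets, 16 were tested, with medians of 0.06 for ACTH and 0.06 for DEX. Vim, the intermediate filament vimentin, was 1.00 ± 0.30 for ACTH (adjusted p = 0.219), with a change of 1.66 in rat 1, whose adipose markers were 3.48-fold higher on the right, and 0.22 in rat 5, and the part of adipose tissue was not tested. For ACTH, Plaur, the urokinase receptor, was 0.36 ± 0.15. For DEX, Ccnd1, cyclin D1, was 0.44 ± 0.21 and Cad, an enzyme of pyrimidine synthesis, -0.31 ± 0.15. Plau, urokinase itself, rose on the right over all 8 rats by 0.32 ± 0.06 (limma adjusted p = 0.0282). It was 1 of the 16 called there, where 1.54% of all tested probe sets were called.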

How the data were processed

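Each array was deposited as linear signal intensity, with 1 value per probe set. How the authors normalized it is not given in the sources used here. Per the labels' protocols, total RNA was purified and 5 to 8 µg were made into biotin-labelled cRNA. The values ran from 5.18 to 12664, and since array medians spanned 0.12 on the log2 scale the arrays were not normalized again. No deposited column was left unused. After 59 control probe sets were removed, values became log2(value + 16), and the 40% of probe sets with the lowest mean of these log2 values were left out, which left 5244 with a lowest mean signal of 60.5. A mean of the linear signal would have kept 1 more member probe set, Egr1 rc_AI176662_s_at. In the annotation 7006 probe sets had 1 symbol, 308 had several and 1426 had none.

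limma 3.58.1 in R 4.3.3 fitted a term for each rat, the right kidney, and ACTH and DEX in the right kidney (5 residual degrees of freedom, prior 7.34 with an intensity trend). Left kidneys were fitted by treatment with a term for rats 5 to 8. Tests were two-sided, with Benjamini-Hochberg adjustment across the tested probe sets and a threshold of 0.05. Deviations of a rat's left and right arrays correlated at 0.55 to 0.71. Only 3 of the 8 left kidneys correlated best with the right kidney of their own rat. The others correlated more strongly with another rat of the same set, so these values do not show pairing by animal. The rat term follows the design, in which the left kidney was the control. Correlations used exact permutation of the 8 rats (SciPy 1.17.1). The limma p values rest on a probe set's spread between these 8 rats, drawn toward the spread of probe sets of like brightness. Array number limits the precision. The script was tested on simulated data.

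All probe sets of the named members are reported, some by ranges or by part of their values, a gene being represented by its brightest. In each related list the 2 genes with the smallest p per hormone effect, any gene past the threshold, and the genes closest to each member (3 each, and 5 for their mean) are named. Members and lists were chosen with earlier results of these data known. Alternatives were pseudocounts of 1 and 64, no filter, quantile normalization, no trend, no rat term, a right kidney term for each set of rats, right kidneys only, each set of 4 rats alone, and leaving out each rat.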

Additional observations from a re-analysis of the deposited data

Results flagged for a closer look

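All 3 tested Jun probe sets are listed because both ACTH rats moved down and both DEX rats moved up on the right, with differences between the hormone effects of -0.56, -0.71 and -0.69. The test of the difference itself did not pass (limma adjusted p = 0.357, 0.252 and 0.252). In 54 groups of values checked for a sample far from the rest, 5 had such a sample. The rule flags about 1 in 20 independent groups by chance. The 54 groups share rats and genes, so their count cannot be set against that rate. In 3 of the 5 the sample was the left kidney of saline rat 6, the highest of the 8 left kidneys. These were Egr1 AF023087_s_at (1845, next 915), Junb rc_AA891041_at (245, next 184) and Atf3 M63282_at (84.9, next 60.4). Among the saline rats, the right minus left change of Jun rc_AA945867_at was 0.36 in rat 4, with the next highest at -0.28, and that of the dim Jun rc_AA944014_at was 0.40 in rat 6, with the next highest at -0.22. Without rat 6 the effects on Egr1 were 0.78 for ACTH and 1.03 for DEX over saline.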

How the results depend on the processing

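No member passed the threshold in any comparison under any alternative that was run, except Ier3 for ACTH with rats 1 to 4 alone, where the count was 1 and 296 of all tested probe sets were called. Directions turned as follows. With rats 1 to 4 alone, ACTH over saline was -0.31 for Junb, -0.57 for Egr1 and -0.68 for Ier3, and DEX over saline was -0.18 for Egr1 and -0.16 for Ier3. With rats 5 to 8 alone, DEX over saline was 0.091 for Fos and 0.27 for Junb, and ACTH minus DEX was 0.37 for Ier3. With right kidneys only, ACTH minus DEX was 0.61 for Egr1 and 0.19 for Ier3. Leaving out each rat gave, for ACTH, Jun -0.35 to 0.072, Junb -0.10 to 0.33 and Ier3 -0.32 to 0.84, all 3 turned without rat 5. For DEX it gave Fos -0.16 to 0.15 (turned without rat 3, 6 or 8) and Junb -0.34 to 0.056 (without rat 3). For ACTH minus DEX it gave Egr1 -1.16 to 0.67 and Ier3 -0.66 to 0.51 (without rat 1 or 7). Jun ran from -0.79 to -0.34, a sign fixed by the opposed signs of its ACTH and DEX rats.

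Without the replicate block that pairs the kidneys of a rat, the member count was 0 in every comparison that used it, and calls over all probe sets were 0 for ACTH over saline and for ACTH minus DEX, 4 for right over left in ACTH rats and 0 over all 8 rats, against 26, 30, 187 and 81 with it. Calls for ACTH over saline were 12 with quantile normalization, 296 with rats 1 to 4 alone, 0 with rats 5 to 8 alone or right kidneys only, and 9 to 114 when 1 rat was left out (114 without rat 5). A right kidney term for each set of rats gave 39 for ACTH over saline, 74 for ACTH minus DEX and 290 for right over left in ACTH rats, and 120 over all 8 rats. ACTH minus DEX gave 255 with rats 1 to 4 alone, 0 with rats 5 to 8 alone or right kidneys only, and 2 to 100 when 1 rat was left out, and right over left over all 8 rats gave 28 to 104. With rats 1 to 4 alone right over left was called for 443 probe sets in ACTH rats, 178 in DEX rats, 72 in saline rats and 548 over all, DEX over saline for 40, and with rats 5 to 8 alone 0 in each. Hormone groups of 2 rats and the spread of Egr1 between animals limit what could be detected. The correlation of Egr1 and Ier3 was 0.91 with a pseudocount of 1 and 0.90 with quantile normalization (exact permutation, adjusted p = 0.0325 and 0.0310).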
